A study of Homo sapiens with 4 samples.

Results

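Collagens, laminins and the lysyl oxidases that crosslink collagen were read in Huh7 and Hep3B, 2 established human HCC cell lines, with and without arsenic trioxide (ATO). The members are every gene of the U133 Plus 2.0 annotation with a symbol of the form COL number A number, or LAMA, LAMB or LAMC plus a number, together with LOX and LOXL1 to LOXL4. There were 58 such genes among the 19775 genes measured, 43 collagen chains, 10 laminin chains and 5 lysyl oxidases. Each gene was represented by its brightest probe set, a group of short probes for 1 transcript, among the probe sets that name that gene alone. The ATO-treated Huh7 and Hep3B cells had received 3 μM ATO for 7 days, and the negative control cells of each line had received DMSO. Each line and condition was measured as 1 profile, 4 profiles in all, so a ratio within 1 line has no error of its own and no test. The deposited values are intensities on a linear scale, and no detection call was used here. A gene whose mean over the 4 profiles was under 17.3, the median of all probe sets, is called dim.

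Fibrillar collagens such as types I, II, III, V, XI and XXVII form the load-bearing fibers of the stroma. Type IV collagen and the laminins, each laminin being a trimer of an alpha, a beta and a gamma chain, build the sheet-like basement membrane. The lysyl oxidases oxidize lysine residues of collagen and elastin, which lets neighboring molecules crosslink and stiffens the matrix. In liver, hepatic stellate cells are the main source of fibrillar collagen, while hepatocytes and their tumors make basement membrane chains and lysyl oxidases as well.

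LOX and LOXL2 were the lysyl oxidases, LAMB3 the laminin chain, and COL5A2 and COL2A1 the collagen chains whose intensity stood apart between ATO-treated and negative control cells. Of these genes, RefSeq promoter windows were at hand for LOX and LAMB3, and they are shown because LOX was higher with ATO in Huh7 and lower in Hep3B, while LAMB3 was higher in Huh7. Each window holds 250 bases before and 50 bases after an annotated start, is written 5′ to 3′ on the gene's strand and is from GRCh38.p14. LOX and LAMB3 have 3 such windows each, and the one with the most motif matches was chosen after the matches were seen. Capitals mark ACGTG, the core of the hypoxia response element, in LOX, and TGANTCA, the AP-1 motif, in LAMB3.
LOX promoter, chr5:122078210-122078509, minus strand: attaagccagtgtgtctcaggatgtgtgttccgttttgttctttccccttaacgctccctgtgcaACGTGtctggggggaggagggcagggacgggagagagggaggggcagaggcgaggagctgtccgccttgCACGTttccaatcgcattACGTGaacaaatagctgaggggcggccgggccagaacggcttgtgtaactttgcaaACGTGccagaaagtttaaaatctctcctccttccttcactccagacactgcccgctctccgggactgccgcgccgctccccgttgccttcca
LAMB3 promoter, chr1:209651325-209651624, minus strand: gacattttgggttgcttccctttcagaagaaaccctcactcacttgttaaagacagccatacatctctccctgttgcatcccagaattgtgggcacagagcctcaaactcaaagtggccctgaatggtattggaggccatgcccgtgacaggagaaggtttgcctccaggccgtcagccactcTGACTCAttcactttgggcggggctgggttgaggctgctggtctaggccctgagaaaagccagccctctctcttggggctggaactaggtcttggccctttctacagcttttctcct

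The LOX window held 4 matches to ACGTG on either strand, and 0.843% of the 35116 RefSeq windows held at least as many. At least 1 match was found in 21.4% of all windows. The AP-1 match of the LAMB3 window lay at bases -67 to -61 from the start, and 7.71% of all windows held such a motif. The other LAMB3 windows held no AP-1 motif. The search covered both strands. It also took in the antioxidant response element, TGACNNNGC, and the STAT motif, TTCNNNGAA. The TEAD motif was searched as CATTCC. The TATA box was searched as TATAAA. Matches of different motifs could overlap. No match to the 4 other motifs was found in the printed windows. A match describes these letters only. RefSeq windows were found for 43 of the 58 genes, 60 windows in all, of which 16.7% held ACGTG and 3.33% the AP-1 motif.

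All 9 liver markers were at or above the median probe set. In negative control cells the secreted liver proteins ALB and AFP were at 155 and 91.8 in Huh7 and at 12803 and 3567 in Hep3B, and TTR, a transport protein, was also lower in Huh7, at 48.1 against 1704. APOA1 and TF were lower in Huh7 too, at 1046 against 4240 and at 6610 against 12576. Other liver markers were higher in Huh7, FGB of fibrinogen at 1012 against 210 and SERPINA1 at 12710 against 10091, as were the keratins KRT8 and KRT18. The identity of the lines was taken from the labels and could not be checked in these data, which bears on every value given by line. Of 8 markers of fibroblasts and stellate cells, 3 were at or above the median probe set, PDGFRB, DES and THY1, each in all 4 profiles. ACTA2, LUM, DCN and POSTN were below the median probe set in all 4 profiles. Without and with ATO, the summed intensity of these 8 markers was 116 and 149 in Huh7, and 171 and 128 in Hep3B. The largest part of the difference in Huh7 came from PDGFRB, at 40.28 without and 58.05 with ATO. The difference in Hep3B came mainly from PDGFRA, a growth factor receptor, at 48.5 without and 5.35 with ATO. Of 5 endothelial markers 1, and of 3 blood cell markers none, was at or above the median probe set. Spiked poly-A transcripts had a median log2 difference, ATO minus negative control, of -0.28 for Huh7 and -0.23 for Hep3B, and that of the hybridization spikes was 0.07 and 0.10. The part of these differences in the results was not tested.

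LOX and LOXL2 were both higher with ATO in Huh7, and in Hep3B LOX was lower while LOXL2 was higher. LOX, the founding member of the family and a known hypoxia target, had an intensity of 104 in negative control and 279 in ATO-treated Huh7 cells. In Hep3B it was 134 in negative control and 39.6 in ATO-treated cells. The order of the conditions was thus opposite in the 2 lines, with ratios of ATO over negative control of 2.69 in Huh7 and 0.295 in Hep3B. A second LOX probe set read 42.0 and 141 in Huh7 and 32.1 and 10.4 in Hep3B, with ratios of 3.37 and 0.325. Another LOX probe set, below the median in every profile at 6.22 to 7.65, had ratios of 1.03 and 1.05. The negative controls of the lines were close, Hep3B being at 1.29 times Huh7, and with ATO LOX was 7.05 times higher in Huh7 than in Hep3B. The ratios of the 2 lines were 9.11-fold apart, a difference that was not tested because each condition and line has 1 profile. Averaged over the lines, the log2 difference of LOX was -0.07 ± 0.82 (SE from limma, adjusted p = 0.993).

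LOXL2, a lysyl oxidase that also acts on type IV collagen, was the 1 gene of the 58 above a ratio of 1.5 in both lines. Its intensity was 61.1 in negative control and 269 in ATO-treated Huh7 cells, and 29.1 and 84.2 in Hep3B. Both ATO-treated profiles were above both negative controls, and the ratio was 4.40 for Huh7 and 2.89 for Hep3B. Over all genes, 0.804% were above 1.5 in both lines. The limma fit on log2(intensity + 16), with line and treatment as terms, gave LOXL2 a log2 difference of 1.52 ± 0.23 (SE), with an adjusted p = 0.506. The fit takes the 2 lines as its replicates, which are not repeats of 1 culture. The result rests on 1 probe set of 4, since the others were below the median in every profile, with ratios between 0.862 and 1.31 in Huh7 and between 0.740 and 0.907 in Hep3B.

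The remaining lysyl oxidases were within the thresholds in Huh7. LOXL4, which was bright in all 4 profiles, had intensities of 749 and 967 for Huh7 and 825 and 841 for Hep3B, with ratios of 1.29 and 1.02. LOXL1, which is linked to elastic fibers, was dim in Huh7 at 5.72 and 5.98. In Hep3B it was 9.66 in negative control and 19.6 in ATO-treated cells, a ratio of 2.03 that was 1.39 once 16 was added to each intensity. LOXL3 stayed near the median probe set, between 15.7 and 18.2, with ratios of 1.10 and 0.907. Of the 5 lysyl oxidases, 5 were higher with ATO at any size in Huh7 and 3 in Hep3B, where over all genes 10110 of 19775 were higher in Huh7 and 11072 in Hep3B.

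**Figure D1:**
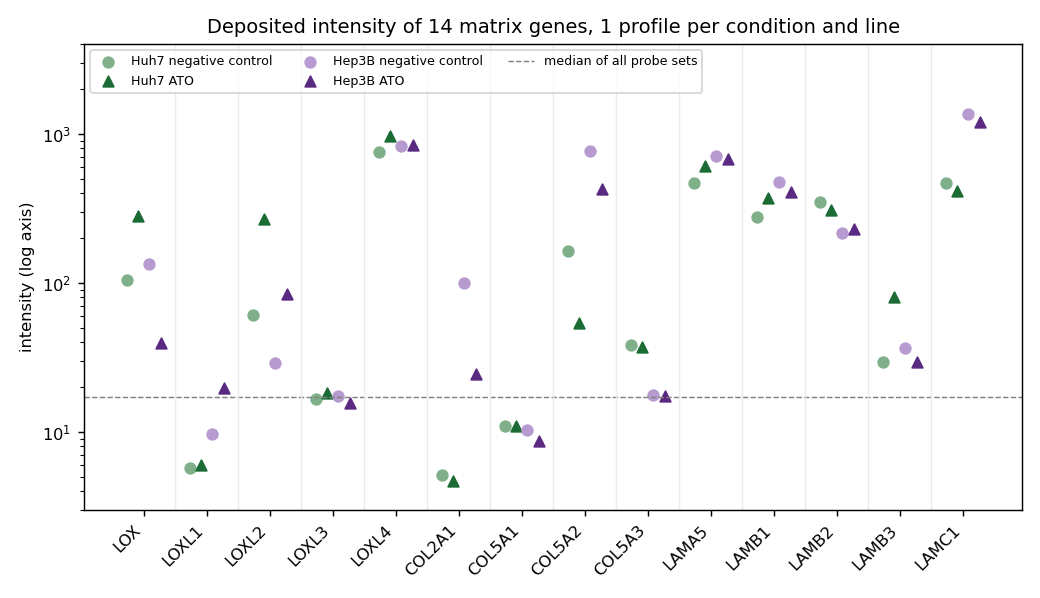
Deposited intensity (y axis, log scale) of 14 lysyl oxidase, collagen and laminin genes (x axis) in each of the 4 profiles. Circles are negative control and triangles ATO-treated cells, Huh7 in green and Hep3B in purple, and the dashed line is the median of all probe sets, 17.3. LOX is highest in ATO-treated Huh7 (279) and lowest in ATO-treated Hep3B (39.6), and COL5A2 is lower with ATO in both lines.

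COL5A2, the alpha 2 chain of the fibril-nucleating type V collagen, was the 1 gene of the 58 below a ratio of 0.67 in both lines. Its intensity was 162 in negative control and 53.8 in ATO-treated Huh7 cells, and 765 and 426 in Hep3B. The ATO-treated profile was the lower one in each line, whereas every Hep3B profile was above every Huh7 profile. The ratios were 0.331 in Huh7 and 0.557 in Hep3B, where 0.587% of all genes were below 0.67 in both lines. A second probe set was lower with ATO in both lines too, with ratios of 0.462 and 0.583. From limma, the log2 difference of COL5A2 was -1.09 ± 0.17 (SE), with an adjusted p = 0.506. Its partner chains were within the thresholds. COL5A1, the chain that all type V trimers share, was dim at 8.72 to 10.9 with ratios of 1.0 and 0.853, and COL5A3 had intensities of 38.3 and 37.0 for Huh7 and 17.6 and 17.3 for Hep3B.

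COL2A1, the cartilage fibril collagen, was lower with ATO in Hep3B. It read 99.5 in negative control and 24.6 in ATO-treated Hep3B cells, a ratio of 0.247, the lowest of the 58 genes in either line. In Huh7 it was dim in both conditions, at 5.16 and 4.67, so that a ratio of 0.906 there says little. A second, dimmer probe set read 18.7 and 10.6 in Hep3B, a ratio of 0.564.

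Chains that accompany COL2A1 in cartilage fibrils differed less with ATO. COL9A3, a chain of the fibril-associated type IX collagen, had intensities of 267 and 205 in Hep3B and of 15.2 and 13.7 in Huh7, ratios of 0.768 and 0.896. COL9A2 was at 62.0 and 58.7 in Hep3B and at 40.7 and 39.8 in Huh7. COL11A1, of the fibrillar type XI collagen, was at 43.6 and 34.5 in Huh7 and dim in Hep3B, at 5.71 and 5.95. A second COL11A1 probe set read 40.15 and 26.6 in Huh7, a ratio of 0.663, just past the threshold. In Hep3B that probe set read 3.64 and 6.96, both below the median probe set, a ratio of 1.91. COL11A2 was at 27.8 and 31.0 in Huh7 and at 27.6 and 26.6 in Hep3B. COL27A1, another fibrillar collagen, was at 169 and 160 in Huh7 and at 724 and 519 in Hep3B, ratios of 0.946 and 0.718. Of its 3 probe sets at or above the median, each had a ratio below 1 in both lines.

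LAMB3, the beta chain of an epithelial laminin of anchoring structures, was higher with ATO in Huh7. Its only probe set read 29.5 in negative control and 80.4 in ATO-treated Huh7 cells, a ratio of 2.73. In Hep3B it read 36.3 and 29.4, a ratio of 0.810. The ATO-treated Huh7 profile was above the rest, which lay close together.

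The chains of the widespread alpha 5 laminins were bright in all 4 profiles and stayed within the thresholds. LAMA5 had intensities of 467 and 607 for Huh7 and 709 and 679 for Hep3B, and LAMB1 of 278 and 373 for Huh7 and 472 and 406 for Hep3B. Both were thus higher with ATO in Huh7, with ratios of 1.30 and 1.34, and lower in Hep3B, with ratios of 0.957 and 0.862. A second LAMB1 probe set was higher in each line, at 1.44 and 1.14, so the direction of LAMB1 in Hep3B is not settled. LAMB2 was at 346 and 306 in Huh7 and at 217 and 231 in Hep3B, ratios of 0.884 and 1.06. LAMC1, the gamma chain shared by most laminins, was at 466 and 411 in Huh7 and at 1361 and 1193 in Hep3B, with ratios of 0.882 and 0.876. Its second probe set differed, with a ratio of 1.12 in Huh7 and, from 781 to 403, of 0.516 in Hep3B. LAMC3 lay near the median probe set, with ratios of 1.35 and 1.10. LAMA1, LAMA2, LAMA4 and LAMB4 were dim in all profiles.

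**Figure D2:**
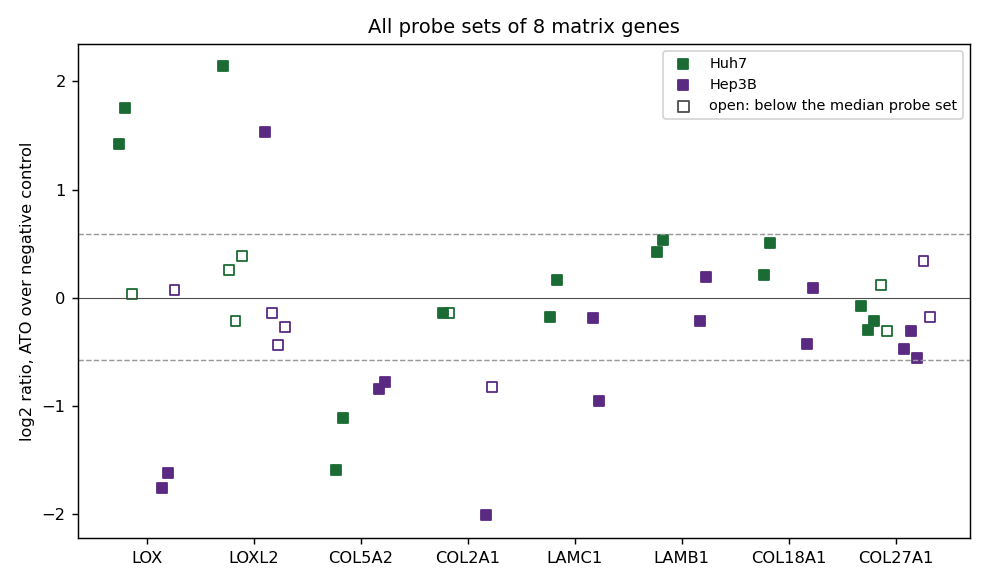
ATO against negative control as a log2 ratio (y axis) for every probe set of 8 collagen, laminin and lysyl oxidase genes (x axis), Huh7 in green and Hep3B in purple. Filled squares are at or above and open squares below the median probe set, and dashed lines mark ratios of 1.5 and 0.67. The 2 filled LOX probe sets are above 1.5 in Huh7 and below 0.67 in Hep3B, and LOXL2 has 1 filled probe set of 4.

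The chains of types I, III and VI were dim or within the thresholds. COL1A1, the main chain of type I collagen, had intensities of 76.4 and 60.2 for Huh7 and 69.7 and 54.5 for Hep3B, ratios of 0.787 and 0.782. The probe set used may also hybridize to similar transcripts, and a second one was higher with ATO, at 1.27 and 1.09, so the direction of COL1A1 is uncertain. A further COL1A1 probe set, below the median in the other 3 profiles, read 5.25 in negative control and 21.3 in ATO-treated Hep3B cells. Its partner COL1A2 was dim at 7.20 to 8.47, as was COL3A1 of type III collagen at 6.65 to 9.18.

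All 6 chains of type IV collagen, the network of the basement membrane, were dim in all 4 profiles. COL4A1 was at 5.53 and 6.86 in Huh7 and at 8.71 and 10.9 in Hep3B. COL4A2 was past the threshold in Hep3B alone, from 8.53 to 13.5, a ratio of 1.58, and COL4A5 in Huh7 alone, from 4.58 to 7.59, a ratio of 1.66. With 16 added to each intensity these ratios were 1.20 and 1.15, and the other COL4A5 probe set had a ratio of 0.753.

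Of type VI collagen, a beaded-filament collagen around cells, COL6A1 was at 38.9 and 45.9 in Huh7 and at 34.6 and 38.9 in Hep3B, ratios of 1.18 and 1.12. COL6A2 was at 35.0 and 49.0 in Huh7, a ratio of 1.40, and at 21.8 and 21.3 in Hep3B, and its second probe set was at 0.723 in Huh7. COL6A3, COL6A5 and COL6A6 were dim. COL18A1, the basement membrane collagen from which endostatin is cut, was at 207 and 239 in Huh7 and at 577 and 430 in Hep3B, ratios of 1.15 and 0.745. Its second probe set had ratios of 1.42 and 1.06, so its direction in Hep3B is not settled either. COL7A1, of anchoring fibrils, had ratios of 1.14 and 1.05. Its second probe set had ratios of 0.813 and 1.33, so the direction of COL7A1 in Huh7 is not settled. COL16A1, a fibril-associated collagen, was at 18.3 and 24.6 in Huh7 and at 15.0 and 21.2 in Hep3B, near the median probe set, with ratios of 1.35 and 1.41. COL13A1, COL20A1 and COL26A1, which were between 17.3 and 45.4, had ratios between 0.835 and 1.39 in Huh7 and between 0.975 and 1.06 in Hep3B. The 1.39 was that of COL13A1, whose second probe set had a ratio of 0.963 in Huh7. Both of these COL13A1 probe sets may also hybridize to similar transcripts.

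In Huh7, 5 of the 58 genes, or 8.62%, were above 1.5, LOXL2, LAMB3, LOX and the dim COL4A5 and COL8A2, and 3.21% of all genes were. Without the dim genes it was 3 of 26 genes, and 3.87% of all genes that were not dim. COL8A2, of a short-chain collagen, was at 5.87 and 9.54 in Huh7. Below 0.67 in Huh7 there was COL5A2 alone, against 3.25% of all genes. In Hep3B, 3 genes were above 1.5, LOXL2 and the dim LOXL1 and COL4A2, against 5.04% of all genes, and 3 were below 0.67, COL2A1, LOX and COL5A2, against 4.02%. In at least 1 line, 9 of the 58 genes, or 15.5%, were past a threshold, and 13.8% of all genes were. LOX was the 1 gene past the thresholds in opposite directions, as were 0.324% of all genes. On the log2 scale the median of the 58 genes was 0.14 in Huh7 and 0.02 in Hep3B, and that of all genes 0.01 and 0.04. The median of the 58 genes in Huh7 was 0.04 with 16 added to each intensity, and 0.05 with probe sets averaged per gene.

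The other 21 genes that were not dim by their mean had ratios between 0.787 and 1.40 in Huh7 and between 0.718 and 1.41 in Hep3B. The 32 dim genes had intensities between 3.05 and 22.8, and 29 genes had no profile at or above the median probe set. Beside those named, the dim genes were COL8A1, COL9A1, COL10A1, COL12A1, COL14A1, COL15A1, COL19A1, COL21A1, COL22A1, COL23A1, COL24A1, COL25A1, COL28A1, COL4A3, COL4A4 and COL4A6. None of them was past a threshold. No gene of the array passed limma for ATO across the lines at an adjusted p under 0.05 (0% of 19775), and the smallest adjusted p of the 58 genes was 0.506. Without the adjustment, limma had a p under 0.05 for 4 of the 58, LOXL2 and COL16A1 higher and COL5A2 and COL1A1 lower, and for 9.54% of all genes.

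**Figure D3:**
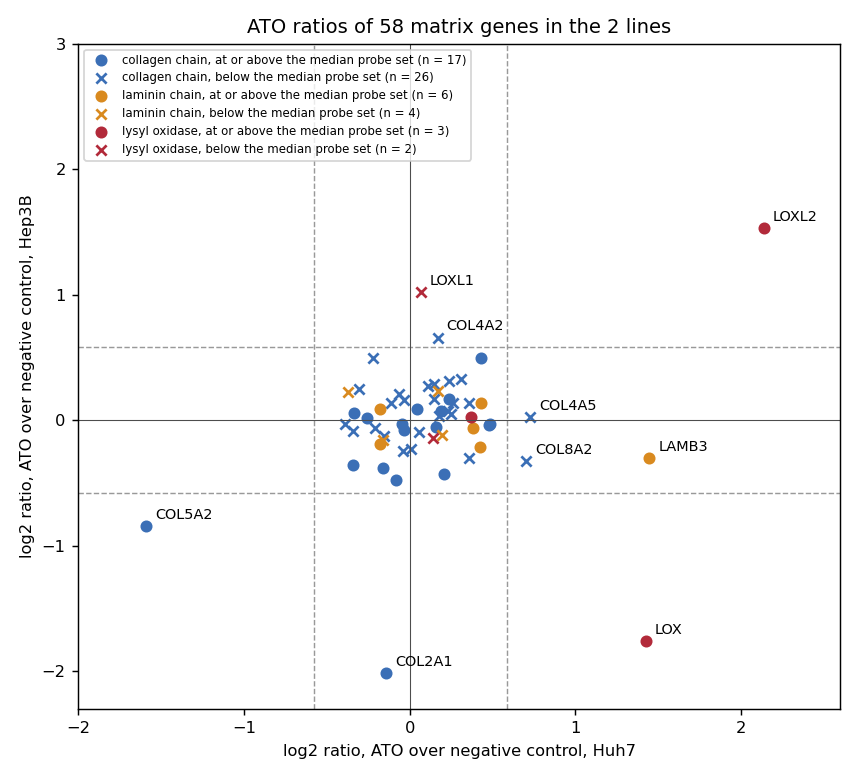
ATO against negative control as a log2 ratio, with Huh7 on the x axis and Hep3B on the y axis, 1 symbol per gene for the 58 collagen, laminin and lysyl oxidase genes. Crosses are genes below the median probe set, and dashed lines mark ratios of 1.5 and 0.67. LOXL2 lies above 1.5 and COL5A2 below 0.67 in both lines, LOX lies at 2.69 in Huh7 and 0.295 in Hep3B, and 49 genes are within the thresholds in both lines.

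In negative control cells, 7 genes were at least 2-fold higher in Hep3B than in Huh7, and 8.73% of all genes were. COL2A1 was 19.3 times and COL9A3 17.5 times higher in Hep3B, COL5A2 4.72 times, COL27A1 4.28 times, LAMC1 2.92 times and COL18A1 2.79 times. COL8A2, at 22.8 in Hep3B and 5.87 in Huh7, was 3.89 times higher, but 1.77 times with 16 added to each intensity and 1.85 times by its other probe set, both under 2-fold. The folds of COL2A1 and COL9A3 were taken over Huh7 values below the median probe set, and with 16 added they were 5.46 and 9.04. The other COL2A1 probe set gave 3.46. At least 2-fold higher in Huh7 were 3 genes, COL11A1 by 7.63 times, COL5A3 by 2.17 times and LOXL2 by 2.10 times, against 9.23% of all genes. The Hep3B value of COL11A1 was below the median probe set, and its ratio of Hep3B over Huh7 was 0.131, or 0.365 with 16 added. For COL5A3 and LOXL2 that ratio was 0.619 and 0.585 with 16 added, short of 2-fold. COL11A1 and COL2A1, which can share a fibril in cartilage, were thus high in different lines.

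With ATO, 6 genes were at least 2-fold higher in Hep3B, COL9A3 (15.0 times), COL5A2 (7.93 times), COL2A1 (5.27 times), LOXL1 (3.28 times), COL27A1 (3.25 times) and LAMC1 (2.90 times), and 8.61% of all genes were. Those of COL9A3, COL2A1 and LOXL1 were again taken over Huh7 values below the median probe set. The second LAMC1 probe set gave 1.32 times with ATO, short of 2-fold, and 2.87 times in negative control cells. In Huh7, 6 genes were at least 2-fold higher, LOX, COL11A1 (5.79 times), LOXL2 (3.19 times), LAMB3 (2.74 times), COL6A2 and COL5A3, against 7.77% of all genes.

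With the 2 treatments as replicates of a line, limma called 9 of the 58 genes for the cell line at an adjusted p under 0.05. Higher in Hep3B were COL9A3, LAMC1, COL5A2, COL27A1, COL9A2 and COL26A1, where 12.2% of all genes were called higher. Lower in Hep3B were COL11A1, COL5A3 and COL7A1, where 12.2% of all genes were called lower. The second COL7A1 probe set had ratios of Hep3B over Huh7 of 0.727 in negative control and 1.19 with ATO. For the second COL26A1 probe set they were 0.792 and 0.957, against the direction called. The log2 difference on the scale with 16 added, Hep3B minus Huh7, was 3.04 ± 0.10 (SE) for COL9A3, with an adjusted p of 0.0114 from limma. For LAMC1 it was 1.51 ± 0.06, with an adjusted p of 0.0119. For COL11A1 it was -1.33 ± 0.10, with an adjusted p of 0.0176. COL18A1 missed the threshold with an adjusted p of 0.050 from limma, and COL2A1, whose level in Hep3B differed with ATO, with one of 0.101. The fit takes out any difference with ATO that the lines share. Its p-values rest on how far the gap between the lines differed between negative control and ATO profiles, moderated over all genes. Line and any batch between the lines cannot be told apart.

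**Figure D4:**
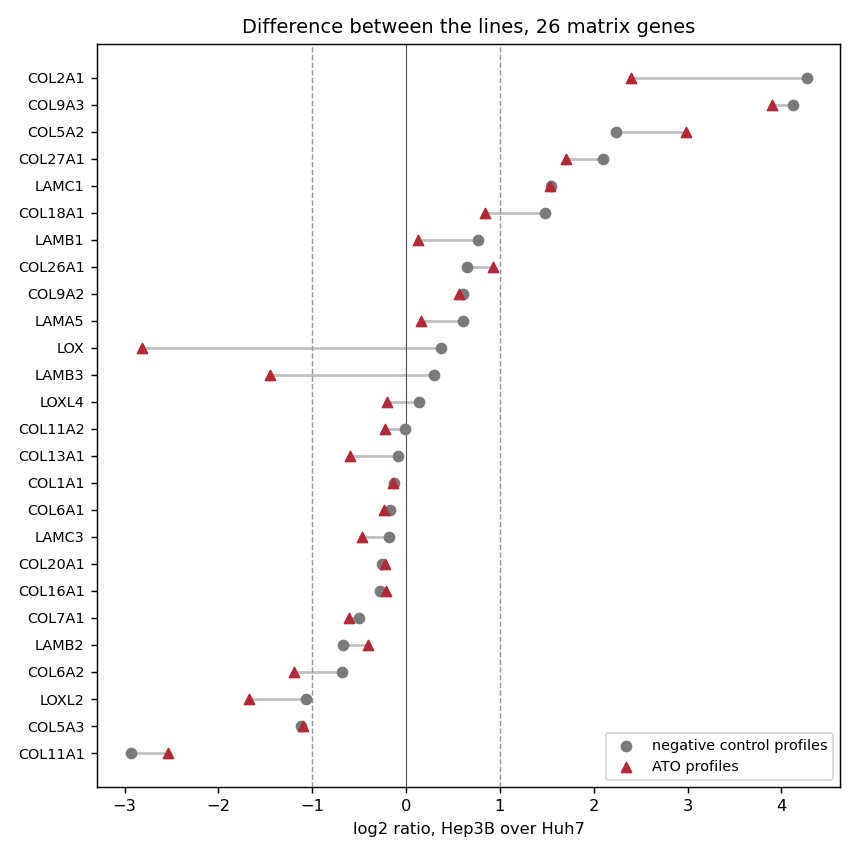
Log2 ratio of Hep3B over Huh7 (x axis) for the 26 genes that were not dim (y axis), gray circles for the negative control and red triangles for the ATO profiles. Dashed lines mark 2-fold in either direction. LOX and LAMB3 lie near 0 in negative control cells and below -1 with ATO, and COL9A3 is 17.5 times higher in Hep3B in negative control and 15.0 times with ATO.

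Genes that make, process, cut or bind the matrix were listed to set the structural chains beside their machinery. Of 20 measured enzymes and chaperones of collagen synthesis, all at or above the median probe set, 1 was above 1.5 and 1 below 0.67 in both lines. Of all genes that were not dim, 1.16% were above 1.5 and 0.896% below 0.67 in both lines. P3H2, a prolyl 3-hydroxylase of basement membrane collagen, was at 153 and 297 in Huh7 and at 39.0 and 105 in Hep3B, ratios of 1.94 and 2.68. PLOD2, the lysyl hydroxylase of the collagen telopeptides, was at 953 and 633 in Huh7 and at 2334 and 939 in Hep3B, ratios of 0.663 and 0.403. CRTAP, a partner of the prolyl 3-hydroxylases, had ratios of 1.20 and 2.41, and P3H3 had ratios of 1.16 and 1.51. The median of this list on the log2 scale was -0.03 in Huh7 and 0.04 in Hep3B.

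Of 8 proteases and enhancers of procollagen processing, 4 were at or above the median probe set. PCOLCE2, an enhancer of the C-proteinase, was below 0.67 in both lines, at 303 and 197 in Huh7 and at 558 and 151 in Hep3B, ratios of 0.652 and 0.271. PCOLCE, its relative, had ratios of 0.707 and 0.919, and BMP1, the C-proteinase, 1.28 and 1.01. TLL2 was dim. Here the log2 medians were -0.01 and -0.05. Over all genes, 0.587% were below 0.67 in both lines.

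Of 19 matrix-degrading enzymes and inhibitors, none was past a threshold in the same direction in both lines. Of all genes, 0.804% were above 1.5 and 0.587% below 0.67 in both lines. TIMP1, an inhibitor of metalloproteinases, was at 836 and 958 in Huh7 and at 83.4 and 181 in Hep3B, ratios of 1.14 and 2.17. TIMP4 was dim in Huh7 and had a ratio of 2.97 in Hep3B, from 14.8 to 44.0, while TIMP3 was at 0.705 and 0.692. MMP7 was dim, with ratios of 1.48 and 1.55. The medians of the list were 0.01 and 0.02.

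Of 16 measured collagen and laminin receptors, none was past a threshold in the same direction in both lines either, against 0.804% above and 0.587% below over all genes. ITGA2, the collagen-binding integrin alpha chain, was at 66.1 and 134 in Huh7 and at 163 and 102 in Hep3B, ratios of 2.03 and 0.627, in the same opposite directions as LOX. CD44, a receptor for hyaluronan and collagen, was at 16.1 and 39.6 in Huh7 and dim in Hep3B, ratios of 2.46 and 1.10. ITGB4, the laminin-binding beta chain of hemidesmosomes, had ratios of 1.67 and 1.22, and ITGA6, its partner, 0.825 and 0.660. ITGA1 had ratios of 0.606 and 1.03. The medians of the list were -0.01 and -0.07.

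Of 21 measured other matrix glycoproteins, THBS1 was above 1.5 and RELN below 0.67 in both lines, against 0.804% and 0.587% of all genes. THBS1, a matricellular thrombospondin, was at 16.6 and 42.2 in Huh7 and at 295 and 529 in Hep3B, and RELN had ratios of 0.642 and 0.567. The basement membrane linkers NID1 and NID2 had ratios of 0.852 and 0.939 for Huh7 and 0.428 and 0.243 for Hep3B, where NID1 was at 1013 and 433 and NID2, dim by its mean, at 27.1 and 6.59. NID1 was named after its values were seen. HSPG2, the basement membrane proteoglycan perlecan, was at 91.7 and 195 in Huh7 and at 352 and 231 in Hep3B, ratios of 2.12 and 0.657. EFEMP1, a fibulin, had a ratio of 1.13 in Huh7 and of 5.66 in Hep3B, from 21.1 to 119. The medians of the list were 0.14 and 0.04. These lists were not tested.

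**Figure D5:**
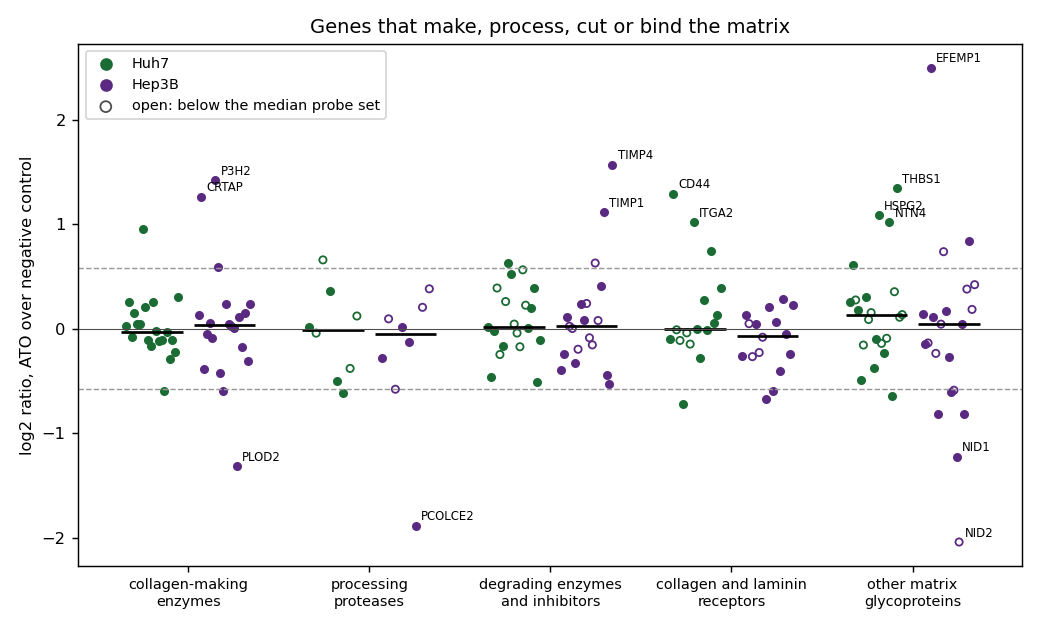
ATO against negative control as a log2 ratio (y axis) for the genes of 5 lists (x axis), 1 circle per gene, Huh7 in green and Hep3B in purple. Open circles are below the median probe set, black bars are medians, dashed lines mark ratios of 1.5 and 0.67, and genes more than 2-fold from the negative control are named. PCOLCE2, PLOD2, NID1 and NID2 lie lowest in Hep3B, and the medians lie between -0.07 and 0.14.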

How the data were processed

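Gene expression was measured in 4 samples, Huh7 and Hep3B with DMSO or ATO, on Affymetrix U133 Plus 2.0 arrays. Per the methods, the authors used Robust Multi-array Average, a log transformation and normalization across arrays (simpleaffy in R). What they deposited is a linear intensity for each probe set, from 2.24 to 14163.5, with array medians between 15.8 and 16.3. How the values came back to linear, and how many arrays stand behind each profile, is not given in the sources used here. Of 54675 probe sets, 41097 named 1 gene by GEO's platform annotation, and the brightest of these stood for each of 19775 genes. The 58 genes had 146 such probe sets, and 1 more that named several genes was not used.

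Ratios were taken within each line and counted as called past 1.5 or 0.67, the thresholds of the study, and between the lines at 2-fold. The limma test (limma 3.58.1, R 4.3.3) was fitted to log2(intensity + 16) over all genes with cell line and treatment in the model and 1 residual degree of freedom, with the Benjamini-Hochberg adjustment and a threshold of 0.05. The steps were tested on simulated data. Tables and figures were made with pandas 2.3.3 and matplotlib 3.10.9. Of 115 entries in 9 gene lists, 109 were measured. The genes described and the lists were chosen with earlier results of these data known. Members given in full are those past a threshold in both lines and the 6 highest and 6 lowest ratios per line. The 8 largest gaps between the lines in each direction, the 10 brightest and their partner chains are also given. From each of the 5 matrix lists come the 4 genes with the largest absolute mean log2 ratio. Listed genes past a threshold in both lines were added. The alternatives were other ways to combine probe sets, dim genes left out, other normalizations, offsets, thresholds, profiles and priors. No depth applies to arrays, where 1 profile per condition and line limits the precision.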

Additional observations from a re-analysis of the deposited data

Results flagged for a closer look

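Genes past the thresholds in opposite directions in the 2 lines were looked for among the 58 genes and the listed genes. LOX was lower in Hep3B relative to Huh7 by a log2 difference of -3.19 between the 2 ratios. ITGA2 had a difference of -1.70, HSPG2 of -1.69 and the dim protease ADAMTS3, with ratios of 1.58 and 0.67, of -1.24. Each of these rests on 1 profile per condition and line, and the difference between the lines was not tested.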

How the results depend on the processing

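With probe sets averaged per gene, with dim genes left out, with 16 added to each intensity and with thresholds of 2.0 and 0.5, the genes above 1.5 in Huh7 numbered 3 in place of 5. In Hep3B they numbered 1 in place of 3 with dim genes left out and with 16 added, which takes out LOXL1 and COL4A2. Against 1 gene in both lines in each direction, Huh7 alone gave 5 above and Hep3B alone 3 above and 3 below, and with thresholds of 2.0 and 0.5 the number below in both lines was 0. The 3 genes at least 2-fold higher in Huh7 became 1 with 16 added or with a ratio of 3, and 6 in the ATO profiles. For the cell line, limma called 14 in place of 9 genes with dim genes left out, 17 without an offset and 15 with an intensity trend in the prior. For ATO, limma called none of the 58 under any alternative run, while over all genes it called 1 higher and 2 lower with dim genes left out, 5 and 3 without an offset, and 7 and 2 with the trend. The median log2 ratio of the 58 genes in Huh7 was 0.14. With 16 added to every intensity it was 0.042, and with probe sets averaged per gene 0.051. Of 22 single values past a threshold, none reversed when the values were processed otherwise, in 127 comparisons of which 117 kept the side of the threshold. Other probe sets reversed 10 of 31 comparisons, in each case from a dim one. For LOX in Hep3B the value was 1.05, and for COL4A5 in Huh7 0.753. For LOXL2 it was 0.862 in Huh7 and 0.907, 0.740 and 0.827 in Hep3B, and 1.11 and 1.26 for Hep3B over Huh7. For COL27A1 the values of Hep3B over Huh7 were 0.729 and 0.833. The causes were not tested. The limma fit pairs the conditions by cell line, and without the other factor as a block it called 0 of the 58 genes for ATO and 11 for the cell line.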
